A study of Homo sapiens with 3 samples.

Results

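The tricarboxylic acid cycle genes described here are 9 genes for enzymes of the mitochondrial matrix and inner membrane, taken by gene name from a table of 62680 rows and given in the order in which their enzymes act: CS, IDH3A, OGDH, DLST, SUCLA2, SDHA, SDHB, FH and MDH2. All 9 were found, each in 1 row, and all 9 were among the 12273 genes tested, those that averaged 1 CPM or more (CPM, counts scaled to a common library size) over the libraries. The libraries are from HepG2, a human hepatocellular carcinoma line whose genotype is given as WT. They were made from cells exposed for 48 h to A740003 at 20 µM, to A438079 at 20 µM, or to PBS, and the labels call both compounds antagonists specific for the P2X7 receptor. Each treatment is 1 library, so differences are unreplicated, no p-value was computed, and every interval covers counting error only. The solvent in which the compounds were given is not stated in the sources used here, so an effect of solvent and one of compound cannot be told apart.

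The tricarboxylic acid cycle joins acetyl-CoA to oxaloacetate to form citrate, and oxidises citrate stepwise back to oxaloacetate. It passes electrons to the respiratory chain as NADH and through succinate dehydrogenase, which is also complex II of that chain. In hepatocytes the cycle also gives up citrate for lipid synthesis, oxaloacetate for glucose synthesis, and intermediates for handling nitrogen. Its enzymes are encoded in the nucleus, and NRF1, GABPA and ESRRA are transcription factors known to act on many nuclear genes of mitochondria.

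Promoters of the members are shown because the genes belong to 1 pathway but stood on both sides of PBS, and their upstream letters let a reader compare them. RefSeq sequence on GRCh38.p14, running from 250 bases before the start of a gene to 50 bases after it, was at hand for 8 members. The starts are those of RefSeq, and for IDH3A and SUCLA2 they lie well inside the GENCODE gene spans. OGDH was not analysed here in this respect. The motifs searched on both strands were GCGCA, any base, then GCGC (NRF1), TCAAGGTCA (ESRRA) and CCGGAAGT (GABPA), and matches are in capitals. The NRF1 motif was found in 3 of the 8 promoters (SDHA, IDH3A and SUCLA2), against 5.78% of all 35116 promoter entries of this length and 10.7% of the 13532 entries whose symbol belongs to a gene tested here. The GABPA motif was found in 2 of the 8 (DLST and MDH2), against 4.14% and 8.14%. The ESRRA motif was found in none of the 8, against 0.353% and 0.192%. No overlap between different motifs was seen in these windows. The SDHA window (chr5:218070-218369, plus strand) holds 4 copies of GCGCAGGCGC, each starting 49 bases after the one before. The windows of IDH3A (chr15:78149112-78149411, plus strand) and SUCLA2 (chr13:48001224-48001523, minus strand) hold 1 NRF1 match each. Those of DLST (chr14:74881666-74881965, plus strand) and MDH2 (chr7:76047856-76048155, plus strand) hold 1 and 2 GABPA matches. A match is a run of letters and not a measured binding site.
SDHA: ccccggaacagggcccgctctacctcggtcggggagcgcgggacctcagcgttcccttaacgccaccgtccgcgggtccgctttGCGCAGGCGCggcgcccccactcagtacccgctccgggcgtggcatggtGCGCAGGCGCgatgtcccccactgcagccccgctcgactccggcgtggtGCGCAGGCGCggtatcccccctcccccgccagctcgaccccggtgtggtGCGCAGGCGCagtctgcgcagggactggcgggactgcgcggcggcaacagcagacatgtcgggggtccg
IDH3A: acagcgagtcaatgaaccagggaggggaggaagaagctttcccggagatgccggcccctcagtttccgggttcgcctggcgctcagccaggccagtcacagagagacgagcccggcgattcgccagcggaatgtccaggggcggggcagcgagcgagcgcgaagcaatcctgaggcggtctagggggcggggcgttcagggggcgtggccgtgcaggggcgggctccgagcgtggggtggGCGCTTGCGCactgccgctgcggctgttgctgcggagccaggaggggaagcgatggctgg
SUCLA2: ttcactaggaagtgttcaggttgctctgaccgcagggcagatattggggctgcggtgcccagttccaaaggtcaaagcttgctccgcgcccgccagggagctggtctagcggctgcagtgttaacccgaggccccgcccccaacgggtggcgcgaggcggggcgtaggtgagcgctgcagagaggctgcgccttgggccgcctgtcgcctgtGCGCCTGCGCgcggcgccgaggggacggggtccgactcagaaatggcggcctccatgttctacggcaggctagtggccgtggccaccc
DLST: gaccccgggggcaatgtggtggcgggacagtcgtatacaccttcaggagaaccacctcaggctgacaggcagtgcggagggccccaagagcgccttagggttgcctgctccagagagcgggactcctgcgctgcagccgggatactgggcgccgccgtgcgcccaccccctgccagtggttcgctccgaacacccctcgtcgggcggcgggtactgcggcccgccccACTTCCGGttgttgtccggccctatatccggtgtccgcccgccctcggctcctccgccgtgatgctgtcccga
MDH2: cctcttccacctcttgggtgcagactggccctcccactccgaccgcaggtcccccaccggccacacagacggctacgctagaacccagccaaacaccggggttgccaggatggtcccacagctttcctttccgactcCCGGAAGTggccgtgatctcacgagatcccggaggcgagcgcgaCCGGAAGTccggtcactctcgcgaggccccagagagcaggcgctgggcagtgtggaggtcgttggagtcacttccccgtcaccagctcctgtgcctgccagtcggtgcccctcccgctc

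Library totals were 19735540 expected counts with A740003, 19606723 with A438079 and 19375462 with PBS. Hepatocyte markers were abundant in every library, with 10 of 10 detected and summed levels of 20629 to 22697 CPM, although TTR averaged only 5.99 CPM. The markers did not move together with A740003: ALB, AFP and FGB stood at 0.747, 0.715 and 0.741 times PBS, and APOB and TTR at 1.39 and 1.66 times. Their part in the values of the cycle genes was not tested. Of the fibroblast markers 5 of 6 were at 0 counts in every library, the remaining one (PDGFRB) giving sums of 0.101 to 0.515 CPM. The endothelial markers VWF, CDH5 and KDR were at 0 in all, and of the leukocyte markers PTPRC and CD3E were at 0 while LYZ and CD68 were detected (sums of 983 to 1067 CPM over 4 genes). Because RNA was taken from whole cultures, a change in the share of cells expressing a gene and a change in RNA per cell cannot be told apart. Genes of the mitochondrial genome took 8.38% of counts with A740003, 9.39% with A438079 and 10.3% with PBS. The part of that difference in the values below was not tested.

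None of the 9 genes reached a ratio of 1.5 in either direction in any of the 3 comparisons. A gene was called when its ratio passed 1.5, up or down, and the exact 95% counting interval of the ratio excluded 1. Of all tested genes, that rule called 3.21% higher and 10.6% lower for A740003 over PBS, 1.63% higher and 9.44% lower for A438079 over PBS, and 2.52% higher and 2.74% lower for A740003 over A438079. Among the 3720 genes averaging 50 CPM or more, a level that 8 of the 9 members reach, it called 1.45%, 0.726% and 0.323% in those comparisons, both directions together. A count of 0 among 9 is therefore near the background at this level of expression. By the interval alone, with no fold size, 4 members lay above PBS and 3 below it with A740003, where 26.6% and 26.2% of all tested genes did. With A438079, 2 lay above and 1 below, where 22.9% and 23.2% of tested genes did. Genes with fewer counts have wider intervals, and most tested genes average less than 50 CPM. These shares are therefore not matched to the members' level, and the same limit applies to the interval shares given below. The median log2 ratio of the 9 was 0.01 with A740003 and 0.02 with A438079, against medians of 0.01 and -0.00 over all tested genes. Among the genes averaging 50 CPM or more, the medians were 0.057 and 0.0668, above those of the members. Expected counts were whole to within 0.02 in all libraries for 6 members, while those of CS, IDH3A and SDHA held fractions, so reads that these share with other rows make them less certain. Both comparisons use the same PBS library, so a chance deviation of that library enters both.

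CS (ENSG00000062485; chromosome 12, 56271699 to 56300392, minus strand, GENCODE release 29 on GRCh38) encodes citrate synthase, which joins acetyl-CoA to oxaloacetate and so opens the cycle. It had 7133 counts with A740003, 6519 with A438079 and 5761 with PBS, or 359, 336 and 296 scaled CPM. The 95% intervals of A740003 (351 to 367 CPM) and A438079 (328 to 344) lay above that of PBS (289 to 304), the lowest of the 3 libraries. Its ratio over PBS was 1.21 (1.17 to 1.25) with A740003 and 1.13 (1.09 to 1.17) with A438079. Of all tested genes, 82.1% had a lower ratio with A740003 and 77.9% with A438079, so ratios of this size were common. CS had the most counts of the 9 and thus the narrowest interval.

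IDH3A (ENSG00000166411; chromosome 15, 78131498 to 78171949, plus strand) encodes the catalytic subunit of the NAD-dependent isocitrate dehydrogenase. It had 1516 counts with A740003, 1372 with A438079 and 1278 with PBS, or 76.3, 70.7 and 65.7 scaled CPM. The A740003 interval (72.5 to 80.2 CPM) lay above that of PBS (62.2 to 69.5), and the A438079 interval (67.0 to 74.5) overlapped both. The ratio over PBS was 1.16 (1.08 to 1.25) with A740003 and 1.08 (0.996 to 1.16) with A438079.

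OGDH (ENSG00000105953; chromosome 7, 44606572 to 44709066, plus strand) encodes the decarboxylating component of the oxoglutarate dehydrogenase complex, and DLST (ENSG00000119689; chromosome 14, 74881891 to 74903745, plus strand) its succinyltransferase core. OGDH had 427 counts with A740003, 388 with A438079 and 414 with PBS, the fewest of the 9 genes. Its 3 intervals overlapped, and the ratios over PBS were 1.01 (0.879 to 1.16) and 0.939 (0.815 to 1.08). DLST had 2643 counts with A740003, 2361 with A438079 and 2309 with PBS, or 133, 122 and 119 scaled CPM. The A740003 library was the high one: the ratio over PBS was 1.12 (1.06 to 1.18) with A740003 and 1.02 (0.967 to 1.09) with A438079.

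SUCLA2 (ENSG00000136143; chromosome 13, 47745736 to 48037968, minus strand) encodes the beta subunit of the ADP-forming succinyl-CoA ligase, which makes succinate. It had 1688 counts with A740003, 1579 with A438079 and 1361 with PBS, or 84.9, 81.4 and 70.0 scaled CPM. The intervals of A740003 (80.9 to 89.1 CPM) and A438079 (77.4 to 85.5) overlapped each other, and both lay above that of PBS (66.3 to 73.8). The ratio over PBS was 1.21 (1.13 to 1.30) with A740003 and 1.16 (1.08 to 1.25) with A438079.

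SDHA (ENSG00000073578; chromosome 5, 218241 to 256700, plus strand) and SDHB (ENSG00000117118; chromosome 1, 17018722 to 17054170, minus strand) encode the flavoprotein and iron-sulfur subunits of succinate dehydrogenase. SDHA had 2585 counts with A740003, 2712 with A438079 and 2738 with PBS, or 130, 140 and 141 scaled CPM. Its ratio over PBS was 0.923 (0.875 to 0.975) with A740003 and 0.992 (0.940 to 1.05) with A438079, so only the A740003 interval lay below 1. SDHB had 2094 counts with A740003, 1990 with A438079 and 2189 with PBS, or 105, 103 and 113 scaled CPM. The PBS library was the highest, with ratios over it of 0.936 (0.881 to 0.994) and 0.911 (0.857 to 0.968). Rows of SDHA pseudogenes also held counts: SDHAP4, for example, had 298.19 with A740003, 285.10 with A438079 and 268.04 with PBS. When SDHA was summed with all SDHA pseudogene rows, its ratios over PBS were 0.948 (0.901 to 0.998) and 1.002 (0.952 to 1.05).

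FH (ENSG00000091483; chromosome 1, 241497603 to 241519761, minus strand) encodes fumarase, and MDH2 (ENSG00000146701; chromosome 7, 76048051 to 76067508, plus strand) the mitochondrial malate dehydrogenase that returns malate to oxaloacetate. FH had 2594 counts with A740003, 2590 with A438079 and 2729 with PBS, or 131, 133 and 140 scaled CPM. PBS was the highest of the 3, with ratios over it of 0.930 (0.881 to 0.981) with A740003 and 0.951 (0.901 to 1.003) with A438079. MDH2 had 1583 counts with A740003, 1671 with A438079 and 1655 with PBS, or 79.7, 86.1 and 85.1 scaled CPM. Its ratios over PBS were 0.936 (0.873 to 1.003) and 1.01 (0.944 to 1.08), and both intervals include 1.

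**Figure D1:**
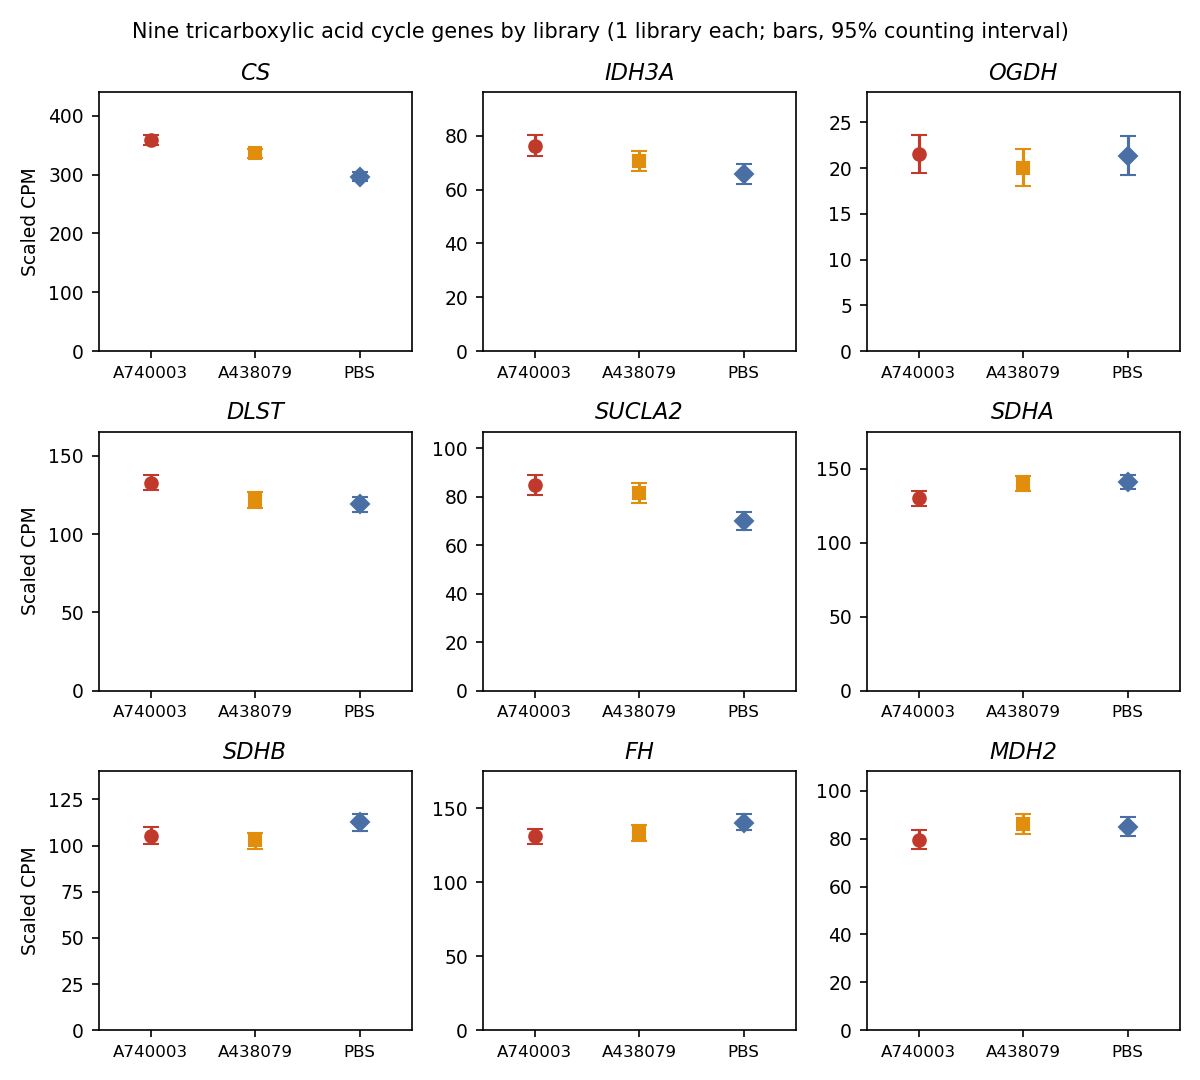
Scaled CPM (linear axes from 0) of each of the 9 genes in the A740003, A438079 and PBS libraries, 1 library each, with exact Poisson 95% counting intervals as bars. CS and SUCLA2 are lowest in PBS with no overlap of intervals, while SDHB and FH are highest in PBS.

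In cycle order, the 4 genes with an interval above 1 for A740003 over PBS (CS, IDH3A, DLST and SUCLA2) all act before succinate is oxidised, and the 3 with an interval below 1 (SDHA, SDHB and FH) act from that step on. OGDH and MDH2 had intervals that include 1. Other subunits did not all divide in this way: SUCLG1, the partner of SUCLA2, had an interval below 1 (0.866 to 0.984), and SDHC and SDHD stood at 1.03 and 1.003 with intervals that include 1. The grouping was noticed after the values were seen and was not tested. With A438079 the interval was above 1 for CS and SUCLA2 and below 1 for SDHB. The CS count divided by the SDHB count of the same library, which needs no scaling between libraries, was 3.41 (3.24 to 3.58) under A740003, 3.28 (3.12 to 3.45) under A438079 and 2.63 (2.5 to 2.77) under PBS. CS and SDHB were thus in unequal proportion to each other in the antagonist libraries and in PBS. Both genes were taken from opposite sides of the grouping above, so their count ratio restates it and adds no separate support. That ratio shows unequal change and does not say which gene moved.

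**Figure D2:**
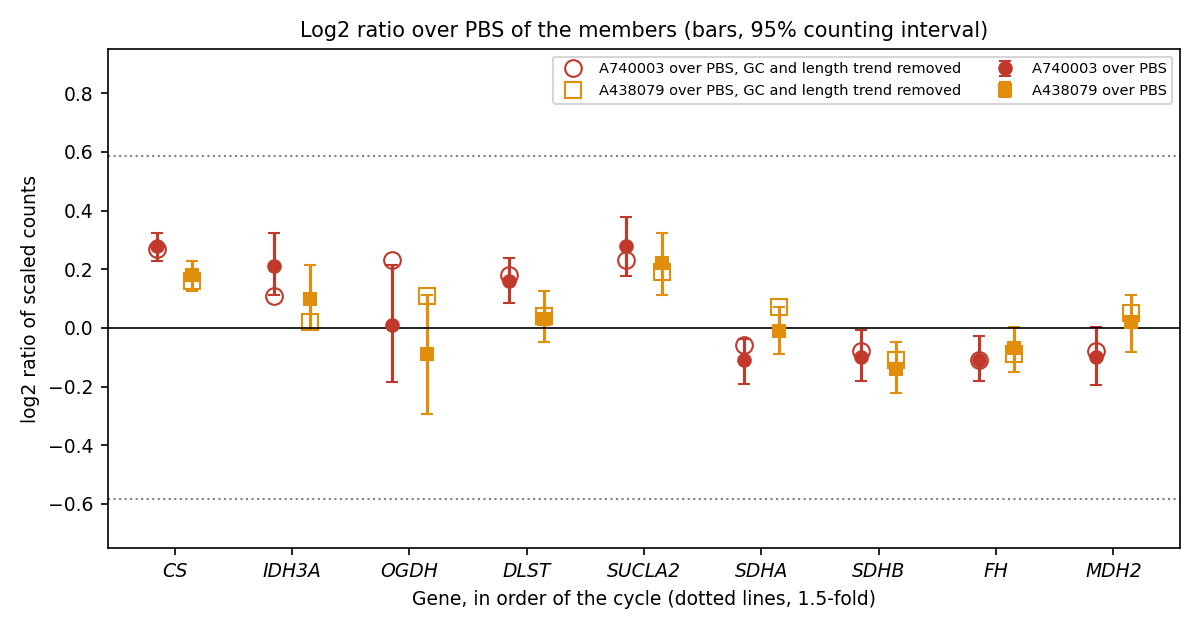
Log2 ratio over PBS of the 9 genes in cycle order for A740003 and A438079, with 95% counting intervals as bars on the filled points and the value after removal of the GC and length trend as open points. All values lie inside the dotted lines at 1.5-fold, and the highest is 0.28, for CS and SUCLA2 with A740003.

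Levels between genes were compared on the authors' FPKM values, which are scaled for gene length. With A740003, CS was the highest at 146.86 FPKM, followed by SDHB at 140.94, FH at 86.05 and SDHA at 66.56. DLST stood at 56.67, MDH2 at 50.39, SUCLA2 at 48.16, IDH3A at 47.62 and OGDH last at 6.78 FPKM. The counting intervals of CS and SDHB overlapped, as did those of MDH2 with SUCLA2 and of SUCLA2 with IDH3A. The order was the same with A438079, with CS at 138.41 and SDHB at 132.98 FPKM, overlapping again, and here DLST at 50.74 FPKM also overlapped MDH2 at 47.68. With PBS, SDHB at 152.92 FPKM came before CS at 121.30 without overlap, and the order of the other genes was the same. OGDH was the lowest in all 3 libraries, at 6.12 to 7.05 FPKM, while DLST of the same complex stood at 50.74 to 56.67 FPKM.

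Ratios by FPKM and by counts differed most for MDH2 and IDH3A. MDH2 over PBS with A740003 was 1.04 by FPKM and 0.936 by counts, and over A438079 it was 1.06 by FPKM and 0.925 by counts. The gene length implied by the authors' values (counts divided by FPKM and library total) was 1592 nt with A740003, 1787 nt with A438079 and 1762 nt with PBS for MDH2. IDH3A over PBS was 1.25 with A740003 and 1.19 with A438079 by FPKM, against 1.16 and 1.08 by counts, and its implied length was 1613, 1549 and 1733 nt in the A740003, A438079 and PBS libraries. For MDH2 with A740003 the implied length was 0.903 times that of PBS. For IDH3A it was 0.931 times with A740003 and 0.893 times with A438079. Over all genes with at least 1 FPKM, the central 90% of such length ratios ran between 0.812 and 1.26 for A740003 and between 0.816 and 1.25 for A438079. The other 7 members had implied length ratios of 0.98 to 1.07 over PBS.

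The enzymes of the cycle have further subunits, and the partners of a member did not always have its ratio. All 9 other subunits and enzymes were tested, and none reached 1.5-fold in any comparison. With A740003 their median log2 ratio over PBS was 0.04, with 1 interval above 1 and 1 below, where 26.6% and 26.2% of all tested genes stood. With A438079 it was 0.01, with 2 above and none below, where 22.9% and 23.2% stood. SUCLG1, the alpha subunit that pairs with SUCLA2, had 1857 counts with A740003, 1981 with A438079 and 1967 with PBS, and ratios over PBS of 0.923 (0.866 to 0.984) and 1.01 (0.947 to 1.07). SUCLG2, the beta subunit of the GTP-forming ligase, had 1894, 2107 and 1802 counts in the same libraries, and ratios of 1.03 (0.963 to 1.10) and 1.17 (1.10 to 1.25). The SUCLA2 count was 0.909 times (0.851 to 0.971) that of SUCLG1 with A740003, 0.797 times (0.746 to 0.852) with A438079 and 0.692 times (0.645 to 0.742) with PBS. The proportion of these partners therefore differed between each antagonist library and PBS beyond counting error.

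IDH3B and IDH3G, the other subunits of the NAD-dependent isocitrate dehydrogenase, stood at 1.02 (0.966 to 1.09) and 1.05 (0.890 to 1.25) times PBS with A740003, and at 0.979 (0.922 to 1.04) and 1.04 (0.880 to 1.23) times with A438079. IDH3A had 0.658 times (0.617 to 0.703) the IDH3B count with A740003, 0.639 times (0.596 to 0.684) with A438079 and 0.581 times (0.542 to 0.623) with PBS. All 3 intervals overlapped, but overlap of separate intervals, here and below, does not show that a proportion was the same. DLD, the dihydrolipoamide dehydrogenase shared by the oxoglutarate and pyruvate complexes, stood at 1.09 times PBS in both antagonist libraries (1.04 to 1.14 and 1.03 to 1.14). SDHC and SDHD, which anchor succinate dehydrogenase in the membrane, stood at 1.03 (0.982 to 1.07) and 1.003 (0.942 to 1.07) times PBS with A740003, and at 1.02 (0.971 to 1.06) and 0.951 (0.892 to 1.01) times with A438079. The SDHB count was 0.519 times (0.492 to 0.548) the SDHC count with A740003, 0.511 times (0.484 to 0.539) with A438079 and 0.570 times (0.54 to 0.6) with PBS, and only the A438079 and PBS intervals did not overlap. IDH2, the NADP-dependent isocitrate dehydrogenase, stood at 1.01 (0.935 to 1.09) and 1.01 (0.934 to 1.09) times PBS. The 3 genes of the related lists whose pair of log2 ratios lay nearest to the members' median pair, among 57 candidates, were IDH2, SDHC and PDHB, at distances of 0.00685, 0.0253 and 0.0367 over 2 ratios.

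**Figure D3:**
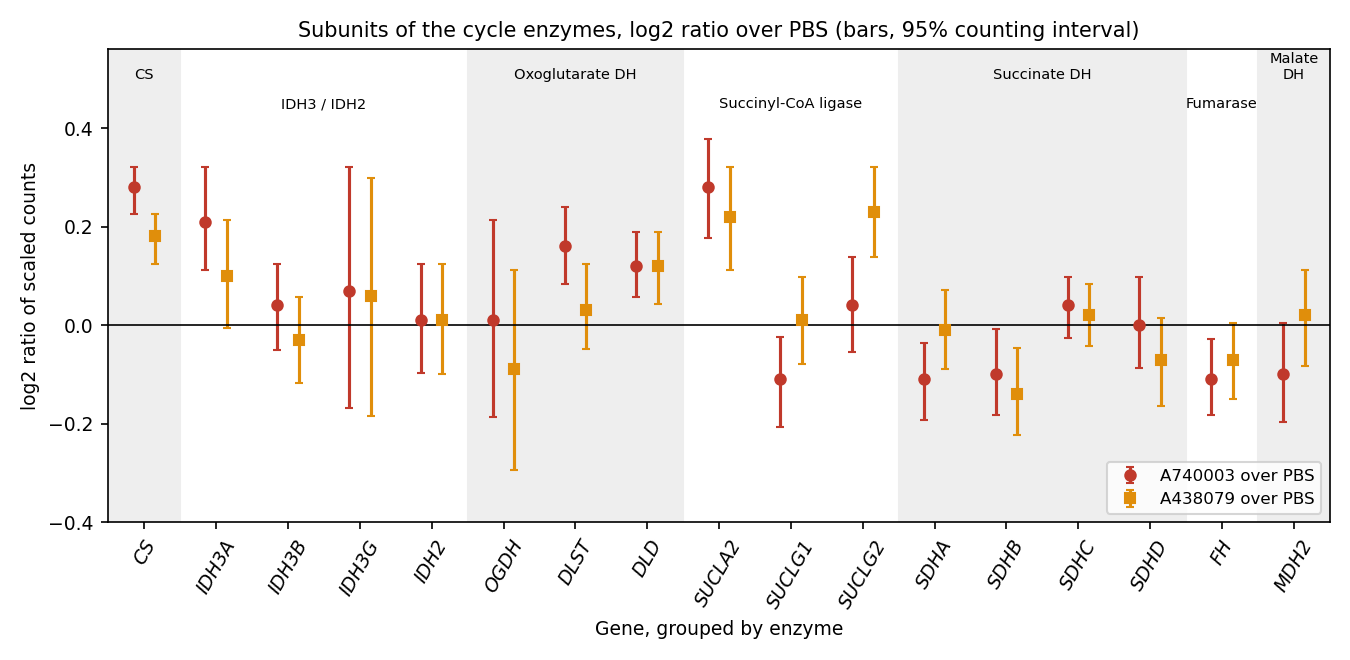
Log2 ratio over PBS of members and other cycle genes grouped by enzyme, for A740003 and A438079, with 95% counting intervals as bars. SUCLA2 lies at 0.28 with A740003 where SUCLG1 lies at -0.11, and SDHA and SDHB lie below SDHC.

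A direct comparison of the compounds, both at 20 µM for 48 h, followed. For A740003 over A438079, CS stood at 1.07 (1.03 to 1.11), DLST at 1.09 (1.03 to 1.16) and IDH3A at 1.08 (1.002 to 1.16), with intervals above 1. SDHA stood at 0.931 (0.882 to 0.983) and MDH2 at 0.925 (0.863 to 0.992), with intervals below 1. The intervals of OGDH (0.934 to 1.24), SUCLA2 (0.974 to 1.12), SDHB (0.966 to 1.09) and FH (0.926 to 1.03) include 1, which does not show that the compounds act alike on them. By the interval alone, 3 members were higher and 2 lower, where 16.1% and 16.8% of all tested genes were. The median log2 ratio of the 9 was 0.06, against 0.00 over all tested genes and -0.00855 over those averaging 50 CPM or more. Summed over the 9 genes, the share of the library was 0.113% for A740003 (exact binomial 95% bounds of 0.111% and 0.114%), 0.108% for A438079 (0.107% and 0.109%) and 0.105% for PBS (0.104% and 0.107%). CS alone gave 7133 of 22263 summed counts with A740003, 6519 of 21182 with A438079 and 5761 of 20434 with PBS. The sum thus follows CS more than any other member. With A740003, 5 members had ratios over PBS above 1 and 4 below.

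Ratios over PBS moved with the GC content of transcripts across all genes. In the 10% of tested genes lowest in GC, the median log2 ratio was 0.13 for A740003 and 0.14 for A438079, and in the highest 10% it was -0.44 and -0.42. The longest coding transcripts of the members had GC contents of 42.0% (SUCLA2) to 56.3% (OGDH). With that trend in GC content and transcript length removed, the log2 ratio over PBS with A740003 was 0.27 for CS, 0.23 for SUCLA2, 0.18 for DLST and 0.11 for IDH3A, against 0.28, 0.28, 0.16 and 0.21 before. OGDH stood at 0.23 with the trend removed and at 0.01 before, the largest move among the members in that comparison. SDHA, SDHB, FH and MDH2 stood at -0.06, -0.08, -0.11 and -0.08 with the trend removed. With A438079, CS and SUCLA2 stood at 0.16 and 0.19 with the trend removed, SDHB at -0.11 and FH at -0.09. OGDH and SDHA, at log2 ratios of -0.09 and -0.01 with A438079, stood at 0.11 and 0.07 with it removed. The IDH3A transcript behind this step was 4128 nt long, well above the implied lengths of that gene given earlier, so its GC value may not be that of the RNA counted.

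**Figure D4:**
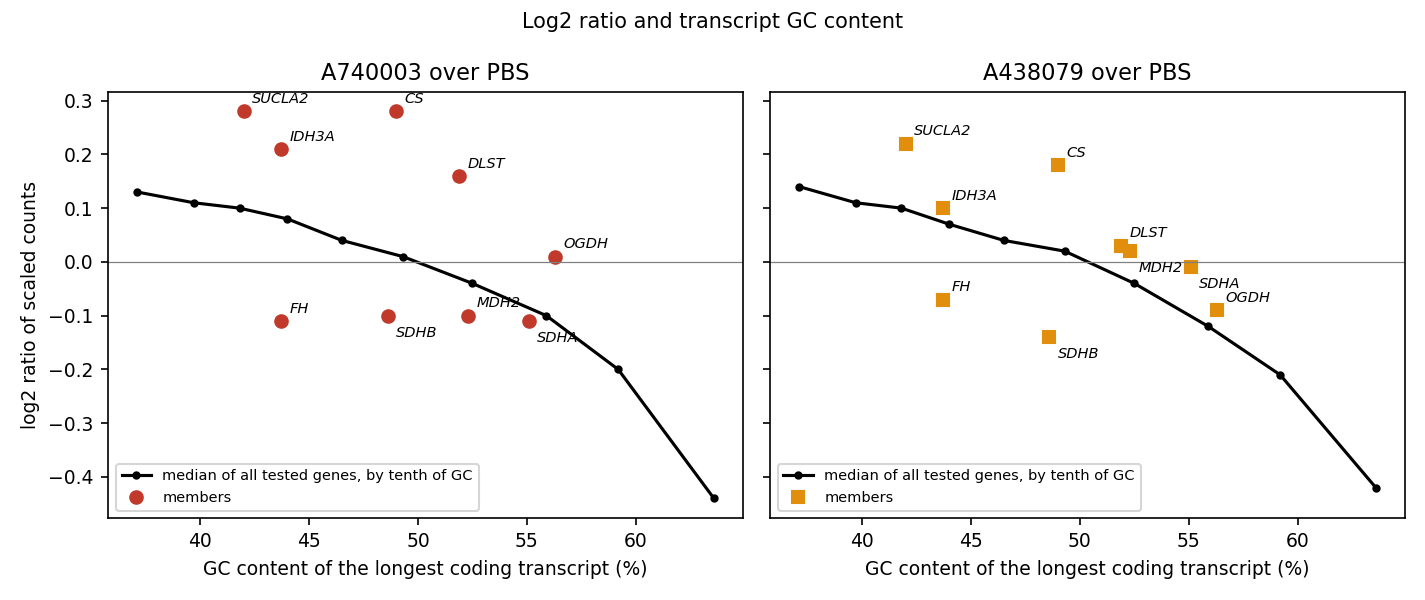
Log2 ratio over PBS against the GC content (%) of the longest coding transcript, for A740003 and A438079. The line joins the medians of 10 equal bins of all tested genes by GC content, from 0.13 to -0.44 with A740003, and points are the 9 members, with CS and SUCLA2 above the line and FH and SDHB below it.

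Genes around the cycle were taken from lists of its neighbouring steps. For entry from pyruvate, 12 of 13 genes were tested and none reached 1.5-fold over PBS, with median log2 ratios of 0.07 with A740003 and 0.13 with A438079. MPC1, a subunit of the mitochondrial pyruvate carrier, had 1402 counts with A740003, 1521 with A438079 and 1791 with PBS, and stood at 0.766 (0.713 to 0.822) and 0.851 (0.794 to 0.911) times PBS. Both antagonist libraries were below PBS, whereas its partner MPC2 stood at 0.981 (0.911 to 1.06) and 1.02 (0.951 to 1.10) times. PDP2, a phosphatase that activates pyruvate dehydrogenase, stood at 0.962 (0.818 to 1.13) and 0.736 (0.617 to 0.878) times, and PDP1, its paralog, at 1.14 (0.868 to 1.49) and 0.765 (0.566 to 1.03) times. PDK3, a kinase that inactivates the same enzyme, stood at 1.27 (1.12 to 1.42) and 1.13 (1.003 to 1.28) times. By FPKM, PDK3 stood at 0.887 and 0.883 times PBS, and PDP2 at 1.32 and 1.08 times. For both genes the side of PBS thus depended on the measure. Their implied length ratios over PBS were 1.43 and 1.26 for PDK3, and 0.732 and 0.675 for PDP2. MPC1 and PDP1 kept their sides by FPKM.

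Of the 13 assembly and cofactor genes, none was at least 1.5-fold higher, and LIPT2 alone was at least 1.5-fold lower, with A740003 and not with A438079. A count of 1 of 13 is near the background, since 10.6% of all tested genes were lower with A740003. LIPT2, named here after its values were seen, acts in the synthesis of the lipoyl cofactor. It had only 24 counts with A740003, 34 with A438079 and 48 with PBS. Medians of the list were -0.13 with A740003 and -0.02 with A438079. NFS1, the cysteine desulfurase of iron-sulfur cluster assembly, stood at 1.21 (1.12 to 1.30) and 1.16 (1.08 to 1.25) times PBS. MRPS36, whose product is also a component of the oxoglutarate dehydrogenase complex, stood at 0.839 (0.762 to 0.923) and 0.983 (0.896 to 1.08) times, and DHTKD1, an OGDH-like enzyme of lysine breakdown, at 1.23 (1.02 to 1.48) and 1.28 (1.06 to 1.54) times.

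The cytosolic counterparts ACO1, IDH1 and MDH1 were all within 1.5-fold of PBS. ACO1 stood at 1.12 (1.05 to 1.20) and 1.14 (1.07 to 1.22) times, IDH1 at 1.01 (0.990 to 1.03) and 0.923 (0.906 to 0.939) times, and MDH1 at 1.08 (1.05 to 1.12) and 1.03 (0.990 to 1.06) times. The MDH2 count was 0.238 times (0.225 to 0.251) the MDH1 count with A740003, 0.271 times (0.257 to 0.286) with A438079 and 0.275 times (0.260 to 0.291) with PBS. Only the A740003 library stood apart in this proportion.

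The list of genes that fill the cycle or draw from it had members past 1.5-fold. Of 18 listed, 14 were tested, with medians of -0.11 with A740003 and -0.13 with A438079. Past 1.5-fold, 3 were lower with A740003 and 1 with A438079, against 10.6% and 9.44% of all tested genes in that direction, and none was higher. A count of 1 of 14 is near the background, and whether 3 of 14 differs from it was not tested. PC, pyruvate carboxylase, which makes oxaloacetate, had 237 counts with A740003, 288 with A438079 and 438 with PBS, and stood at 0.529 (0.450 to 0.621) and 0.659 (0.566 to 0.766) times PBS. Its transcript has a GC content of 61.1%, and removing the GC and length trend took its log2 ratios of -0.92 and -0.60 to -0.10 and 0.03. GPT2, the mitochondrial alanine aminotransferase, had 1149 counts under A740003, 1338 under A438079 and 1949 under PBS. It stood at 0.577 (0.536 to 0.621) and 0.688 (0.641 to 0.738) times PBS, with log2 ratios of -0.64 and -0.37 after that trend was removed. SLC25A10, the mitochondrial dicarboxylate carrier, stood at 0.639 (0.565 to 0.722) and 0.702 (0.623 to 0.791) times, or -0.39 and -0.21 on the log2 scale once the trend was removed. GLUD1, glutamate dehydrogenase, which yields oxoglutarate, stood at 0.742 (0.728 to 0.756) times with A740003 and 0.991 (0.973 to 1.01) times with A438079.

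All 11 listed transcription factors of mitochondrial genes were tested, with medians of -0.03 with A740003 and 0.08 with A438079. Past 1.5-fold, 2 were lower with A740003 (PPRC1 and YY1) and 1 with A438079 (PPRC1), where 10.6% and 9.44% of all tested genes were, so both counts are near the background. PPRC1, a coactivator related to PPARGC1A, stood at 0.623 (0.530 to 0.731) and 0.663 (0.565 to 0.776) times PBS, or -0.27 and -0.22 on the log2 scale once the trend was removed. YY1 stood at 0.656 (0.600 to 0.717) and 0.811 (0.745 to 0.883) times, or -0.65 and -0.35 on that scale. PPARGC1A, a coactivator of mitochondrial biogenesis, had 358, 316 and 243 counts with A740003, A438079 and PBS. It stood at 1.44 (1.22 to 1.70) and 1.30 (1.10 to 1.55) times PBS. Removing the trend took its log2 ratios of 0.53 and 0.38 to 0.34 and 0.22. Of the factors whose motifs were searched, NRF1 stood at 0.978 (0.850 to 1.13) and 1.13 (0.984 to 1.29) times, GABPA at 1.05 (0.959 to 1.15) and 1.06 (0.962 to 1.16) times, and ESRRA at 0.788 (0.660 to 0.940) and 0.751 (0.627 to 0.899) times, or 0.04 and -0.07 on the log2 scale once the trend was removed. The members with an NRF1 motif in the printed windows (SDHA, IDH3A and SUCLA2) stood on both sides of PBS with A740003, at 0.923, 1.16 and 1.21 times. Those with a GABPA motif stood at 1.12 times (DLST) and 0.936 times (MDH2), the interval of MDH2 including 1 and its FPKM ratio being 1.04.

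**Figure D5:**
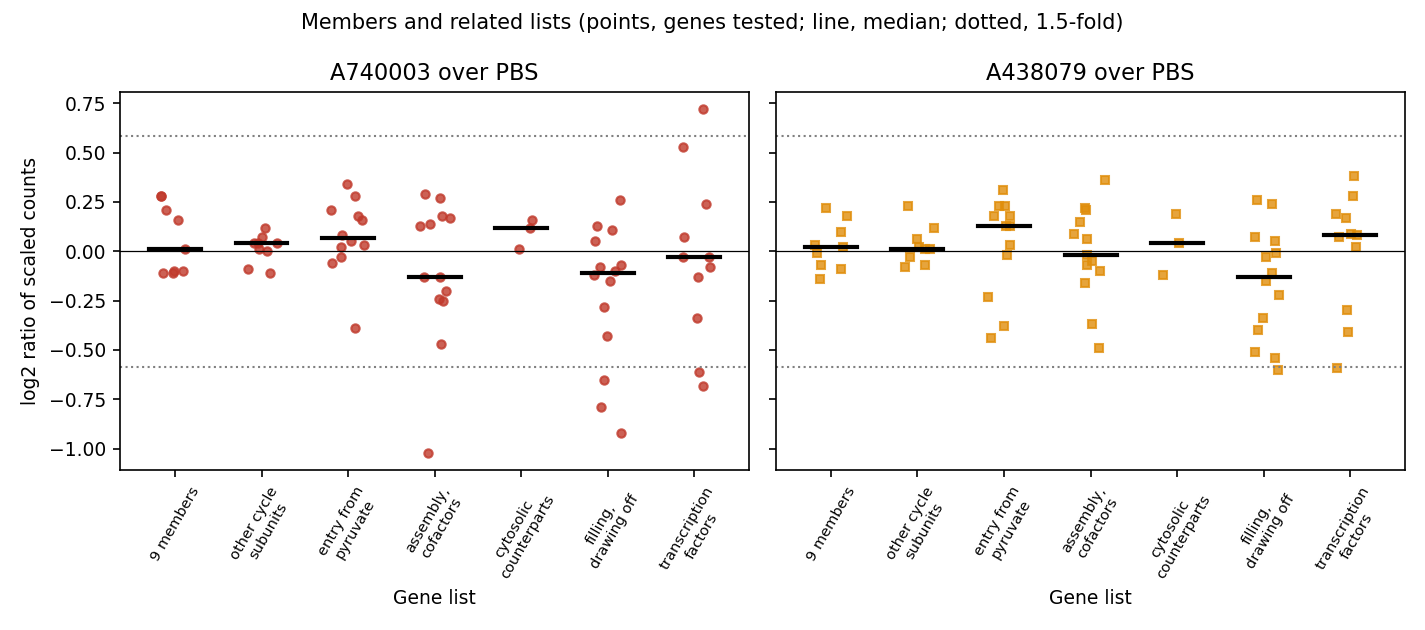
Log2 ratio over PBS for the 9 members and each related list, for A740003 and A438079, with 1 point per tested gene and a line at the list's median. The members lie between -0.14 and 0.28, while genes that fill or draw from the cycle reach -0.92 (PC with A740003).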

How the data were processed

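HepG2 RNA was sequenced in 3 libraries, 1 per treatment, prepared with a SMARTer mRNA kit per the labels' protocols. The authors deposited expected counts (estimated counts per gene, not all whole) and FPKM values, scaled by the authors for gene length and library size. The submitters' processing notes name GRCm38, a mouse build, although rows carry human identifiers. The sources used here name no aligner, counter or use of strand, and reads shared with overlapping or antisense genes are uncertain. A label letter on each sample named its column.

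Expected counts were rounded. Of the 62680 rows, 116 carry no Ensembl identifier and stayed in the totals. TMM factors of edgeR 4.0.16 (R 4.3.3) were 1.007, 0.990 and 1.003 for A740003, A438079 and PBS. Genes averaging 1 CPM or more were compared, where 1 CPM is 19.4 to 19.7 counts. Log2 ratios used a pseudocount of 0.5 counts. Ratio intervals are exact conditional binomial 95% intervals, levels have exact Poisson intervals, and both cover counting error only. The GC and length step subtracted the median log2 ratio of the 200 genes nearest in rank, using the longest coding transcript in GENCODE release 29 (GRCh38), available for 97.0% of tested genes. The counting and interval steps were tested on simulated data. Alternatives were other scalings (total counts, DESeq2 1.42.0, upper quartile), filters, FPKM, unrounded counts, summed pseudogenes and whole counts. Members and lists were chosen with earlier results of these data known. All members are named, and so are the other cycle subunits and up to 4 genes of each further list, chosen as those averaging 5 CPM or more with the largest log2 ratio in size over PBS. Others were chosen after their values were seen (MPC2, LIPT2, and NRF1 and GABPA for their motifs). SLC25A12 and PECAM1 were not analysed here, and some listed genes that counts and medians include are not reported here by name.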

Additional observations from a re-analysis of the deposited data

How the results depend on the processing

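No paired analysis was possible because each treatment is 1 library, and no library could be left out of a comparison. The median log2 ratio of the members stayed within the interval of its middle gene in all 33 recalculations. For A740003 over PBS that gene is OGDH, with a wide interval of -0.19 to 0.21, so this check was weak. The median there ranged from -0.04 to 0.11, the highest with the GC and length trend removed. It ranged from -0.03 to 0.05 for A438079 over PBS and from 0.05 to 0.09 for A740003 over A438079. Of 288 recalculated log2 ratios of members, 278 stayed within their counting interval. The sign changed in 18 of the 288, in 16 of which the interval of the reported value includes 0. The other 2 were MDH2 for A740003 over A438079, at 0.08 with the authors' FPKM values under either pseudocount (0.1 or 1), against -0.11 by counts. The implied length of MDH2 differed between those libraries. Among the 16, MDH2 over PBS with A740003 left its interval, at 0.06 by FPKM with a pseudocount of 0.1 against -0.10 by counts.

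No member was past 1.5-fold under any scaling or filter. With the interval alone, 4 and 3 members were higher and lower for A740003 over PBS, 2 and 1 for A438079 over PBS, and 3 and 2 for A740003 over A438079. Counts over all tested genes depended on the rule. For A740003 over PBS, 394 were higher and 1297 lower. These counts were 146 and 666 at 2-fold, 130 and 693 at 5 CPM, 159 and 798 among genes with whole counts, and 3262 and 3220 with the interval alone, and 760 were higher with no filter. For A438079 over PBS, 200 were higher and 1158 lower, against 104 and 459, 53 and 554, 62 and 701, and 2811 and 2846 in the same order, and 512 higher with no filter. For A740003 over A438079, 309 were higher and 336 lower, against 124 and 139, 66 and 102, 127 and 178, and 1976 and 2061, and 678 and 631 with no filter. Fewer genes enter with the higher filter or whole counts.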

Other observations

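The genes given here were named after their values were seen. PDHA1, the catalytic alpha subunit of the pyruvate dehydrogenase complex, had 1873 counts with A740003, 1848 with A438079 and 1579 with PBS, and ratios over PBS of 1.16 (1.08 to 1.24) and 1.17 (1.10 to 1.25). PDHB, the beta subunit of the same heterotetramer, stood at 1.02 (0.967 to 1.08) and 0.989 (0.936 to 1.04) times PBS. ACLY, which splits exported citrate in the cytosol, stood at 0.944 (0.912 to 0.978) times PBS with A740003 and 0.792 (0.763 to 0.822) times with A438079. SLC25A1, the citrate carrier, stood at 0.901 (0.793 to 1.02) and 0.758 (0.662 to 0.867) times. The SLC25A1 transcript has a GC content of 65.6%. Removing the GC and length trend took its log2 ratios of -0.15 and -0.40 to 0.04 and -0.14. For ACLY that step took -0.08 and -0.34 to -0.03 and -0.28.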
